A study of Mus musculus with 24 samples.

Results

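The genes described here are 8 mouse enzymes through which macrophages and microglia turn over arginine, aromatic amino acids, citrate-cycle intermediates and polyamines. They were taken from a list of symbols, Nos2, Arg1, Arg2, Il4i1, Acod1, Ass1, Odc1 and Sat1, and each symbol matched 1 of the 54838 gene identifiers in the count table. After the filter on low counts, 7 of the 8 were among the 13116 genes tested, and Arg2 was not. No measured value entered the choice by its stated rule, although results of these data were known when the list was drawn up.

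The study exposed the mouse microglial line SIM-A9 to several neural probes and sequenced poly-A RNA, with 3 libraries in each of 8 groups. Besides Control, which is labelled as untreated, the groups were LPS (lipopolysaccharide, a bacterial cell-wall component used as the positive control), 2 single-walled carbon nanotubes (SWCNT) named by their surface as (GT)6 SWCNT, wrapped in DNA, and COOH SWCNT, and 4 other probes. Fura-2 is a calcium indicator, AAV is an adeno-associated virus, and the others, Di-2-ANEPEQ and DiBASC2 (DiSBAC2 in the table's column names), are voltage-sensitive dyes. The labels give the same description of the steps for all groups, Control included. It names 2 h in serum-free medium, then 30 uL of a 10x preparation added to 270 uL, and RNA taken 2 h after that. The labels do not say what, if anything, the Control wells received, and they give no dose, no AAV serotype or cargo, and no statement on whether the 3 libraries of a group came from separate cultures. P-values therefore measure the spread between libraries, which may be technical. The index numbers in the labels also run in blocks of 3 by group, so library order and group cannot be told apart.

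Library totals ranged from 17364272 to 29259221 counts, and 3 counts, the floor used below, came to between 0.102 and 0.176 CPM (counts scaled to a common library size). All 10 genes of a microglia and macrophage marker list were detected in every library, although Tmem119, Aif1 and P2ry12 were low, at 2.75 to 5.32, 2.68 to 5.27 and 1.54 to 3.26 CPM. The list summed to 2086 to 2123 CPM in Control, 2091 to 2246 in LPS, 2147 to 2335 in (GT)6 SWCNT, 2126 to 2253 in COOH SWCNT and 2063 to 2278 in the other groups. Of that list, 4 genes were higher and 2 lower in (GT)6 SWCNT (20.4% of all tested genes were called there), 1 higher and 2 lower in LPS (28.3%), and 1 higher and 1 lower in COOH SWCNT (20.0%), and their part in the results below was not tested. The summed lists for astrocytes, neurons and fibroblasts did not exceed 0.489, 1.03 and 0.379 CPM, with Syt1, Dcn and Lum at 0. The oligodendrocyte list summed to 31.9 to 41.8 CPM, most of it Cnp, with Mog at 0.

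Inducible nitric oxide synthase, encoded by Nos2, makes nitric oxide from arginine and is a hallmark of activated rodent macrophages and microglia. Arginase competes for the same arginine and yields ornithine, from which ornithine decarboxylase makes the polyamines, so the balance of these enzymes is a common marker of macrophage state. Acod1 diverts cis-aconitate from the citrate cycle to itaconate, an immunomodulatory metabolite, and Il4i1 is a secreted oxidase of aromatic amino acids.

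Promoter sequences from RefSeq (GRCm38.p6, 250 bases before to 50 bases from the start site) were found for 5 of the 8 genes, namely Acod1, Il4i1, Odc1, Sat1 and Ass1. The windows of Acod1, Il4i1 and Odc1 are printed because these are the genes called higher in LPS and in both nanotube groups. Their coordinates are chr14:103046762-103047061 on the plus strand for Acod1, chr7:44836038-44836337 on the plus strand for Il4i1 and chr12:17544623-17544922 on the plus strand for Odc1. Sequences run 5′ to 3′, and capitals mark matches, on either strand, to TATAAA in Acod1 and to GGGCGG in Il4i1 and Odc1.
Acod1: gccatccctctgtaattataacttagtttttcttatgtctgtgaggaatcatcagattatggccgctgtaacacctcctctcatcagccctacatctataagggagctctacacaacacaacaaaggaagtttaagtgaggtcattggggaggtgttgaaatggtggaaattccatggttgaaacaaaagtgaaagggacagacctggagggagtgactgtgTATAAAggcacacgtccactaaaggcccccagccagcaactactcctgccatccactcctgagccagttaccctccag
Il4i1: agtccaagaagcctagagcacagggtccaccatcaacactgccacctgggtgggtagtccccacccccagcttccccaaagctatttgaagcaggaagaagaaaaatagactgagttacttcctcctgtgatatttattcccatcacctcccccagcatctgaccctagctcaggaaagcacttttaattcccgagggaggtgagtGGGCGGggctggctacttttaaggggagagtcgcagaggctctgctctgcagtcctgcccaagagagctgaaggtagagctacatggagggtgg
Odc1: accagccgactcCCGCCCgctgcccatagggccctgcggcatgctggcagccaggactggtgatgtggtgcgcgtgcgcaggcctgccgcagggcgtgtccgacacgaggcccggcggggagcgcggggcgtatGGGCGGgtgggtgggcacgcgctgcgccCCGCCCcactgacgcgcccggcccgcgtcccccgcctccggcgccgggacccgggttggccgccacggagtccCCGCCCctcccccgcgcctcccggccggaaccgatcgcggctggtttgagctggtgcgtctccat

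The 3 windows differed in base composition. Acod1 had 47% GC and 2 CG dinucleotides, Il4i1 had 54.0% and 3, and Odc1 had 78.0% and 42, beside medians of 52.7% and 7 over the 32851 promoters in the RefSeq table. Acod1 held TATAAA from -28 to -23 relative to the start site, a motif found in 13.6% of all promoters. GGGCGG, which 35.7% of promoters hold, occurred at 4 places in Odc1 and at 1 in Il4i1. The Sat1 window had 60.3% GC with 2 GGGCGG matches, and the Ass1 window had 74.0% GC with 1 GGGCGG and 1 CACGTG, the latter a motif of 7.15% of promoters. The NF-kB consensus (4.51% of promoters), TGANTCA (7.81%) and TGACGTCA (1.79%) matched in none of the 5 windows, which says only that these letters are not in them. The start sites used by RefSeq for Acod1, Il4i1, Odc1 and Ass1 lie inside the longer genes that GENCODE annotates. The TATAAA of Acod1, the GGGCGG of Il4i1 and the Odc1 match nearest its start site therefore also lie inside those genes.

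In LPS, Nos2, Il4i1, Acod1 and Odc1 rose, none of the 7 tested genes fell, and Arg1, Ass1 and Sat1 did not pass the test. Those 4 of 7 stand beside a background of 28.3% of all tested genes called in LPS, 13.8% higher and 14.5% lower. With upper-quartile scaling the calls in LPS were 35.4% higher rather than 48.7%. The median log2 fold change of the 7 genes was 0.66 in LPS, and that of all tested genes was -0.01. All 7 treatments were compared with the same 3 Control libraries.

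**Figure D1:**
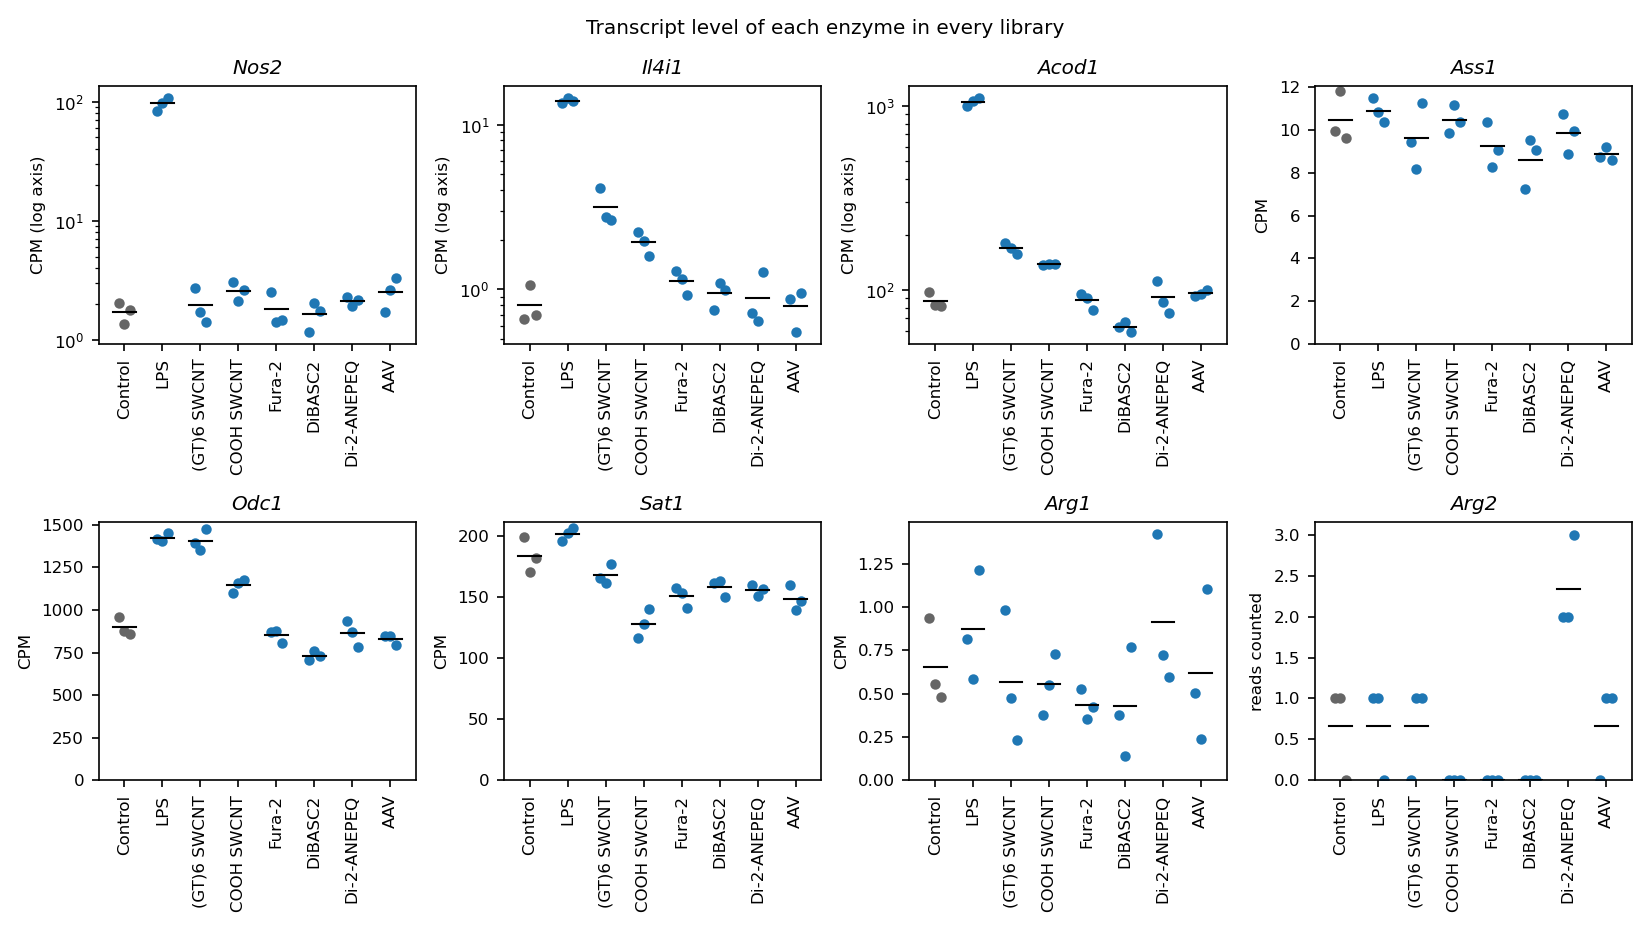
Level of each of the 8 genes in every library, in CPM on scaled libraries (reads counted for Arg2), by treatment group; points are single libraries, lines are group means, and the axes of Nos2, Il4i1 and Acod1 are logarithmic. Nos2 stood apart in LPS alone, Il4i1 and Acod1 stepped down from LPS to (GT)6 SWCNT to COOH SWCNT, and Odc1 was as high in (GT)6 SWCNT as in LPS.

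Nos2 (ENSMUSG00000020826.8, chr11:78920787-78960254, plus strand), which encodes inducible nitric oxide synthase, was at 2.03, 1.36 and 1.76 CPM in the Control libraries and at 83.8, 98.2 and 108 CPM in LPS. Every LPS library was far above every other library of the study, none of which exceeded 3.32 CPM. The rise in LPS was 57.0-fold (log2 fold change 5.83 ± 0.16 SE, adjusted p = 2.89e-27 by edgeR's quasi-likelihood test, n = 3 against 3). Fewer cells expressing a gene and less of its RNA per cell cannot be told apart in such bulk libraries, here and for the other genes.

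In (GT)6 SWCNT the Nos2 libraries were at 2.71, 1.72 and 1.41 CPM, overlapping Control (log2 fold change 0.24, 95% interval -0.33 to 0.82, adjusted p = 0.621). In COOH SWCNT they were at 3.03, 2.10 and 2.59 CPM, all 3 just above the highest Control library. That difference did not pass the test (0.63 ± 0.26, adjusted p = 0.0903), but it did when no filter on low counts was used (adjusted p = 0.0140) and when only these 2 groups were fitted (adjusted p = 0.0433). AAV reached 1.70, 2.60 and 3.32 CPM, overlapping Control (0.58 ± 0.26, adjusted p = 0.183). Set against LPS, the log2 fold change of Nos2 was -5.59 ± 0.15 in (GT)6 SWCNT and -5.21 ± 0.14 in COOH SWCNT, with adjusted p-values of 5.47e-27 and 5.97e-27.

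Il4i1 (ENSMUSG00000074141.13, chr7:44816387-44840809, plus strand), the aromatic amino acid oxidase, was at 0.659, 1.06 and 0.694 CPM in Control. It was at 13.5, 14.6 and 13.9 CPM in LPS, at 4.11, 2.75 and 2.64 CPM in (GT)6 SWCNT, and at 2.24, 1.95 and 1.58 CPM in COOH SWCNT. These 4 groups did not overlap, and their order was LPS, (GT)6 SWCNT, COOH SWCNT and Control from high to low. The rises over Control were 16.8-fold in LPS (log2 fold change 4.07 ± 0.21, adjusted p = 1.04e-18), 3.87-fold in (GT)6 SWCNT (1.95 ± 0.25, adjusted p = 1.22e-07) and 2.33-fold in COOH SWCNT (1.22 ± 0.27, adjusted p = 0.00109). The remaining groups, at 0.548 to 1.29 CPM, overlapped Control.

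Il4i1 is a difficult gene to count. Of its 4080 annotated exon bases, 3423 are also exon bases of Tbc1d17 and 82 of Atf5, both on the opposite strand. Another 97 are exon bases of Nup62 on the same strand. Whether the counting used strand is not given in the sources used here. Without strand, reads of Il4i1 and Tbc1d17 cannot be told apart where they overlap, so the level of Il4i1 is uncertain. Strand would not separate Il4i1 from Nup62 over the bases they share. Tbc1d17 itself, chosen for a look after this overlap was seen, was not called in LPS (log2 fold change 0.01 ± 0.07, adjusted p = 0.927) or in any other of the 10 comparisons. Nup62, at 93.0 to 120 CPM over all libraries, was higher in LPS by 0.23 on the log2 scale (adjusted p = 2.13e-05).

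Acod1 (ENSMUSG00000022126.6, chr14:103046977-103056573, plus strand), which makes itaconate, was at 97.5, 82.4 and 81.4 CPM in Control, so it was well expressed without any of the treatments. LPS libraries held 999.7, 1058 and 1108 CPM, (GT)6 SWCNT 179, 170 and 158 CPM, and COOH SWCNT 137, 139 and 138 CPM. The order was that of Il4i1, again with no overlap between neighbours. Acod1 rose 12.1-fold in LPS (3.60 ± 0.08, adjusted p = 2.66e-29), 1.94-fold in (GT)6 SWCNT (0.96 ± 0.08, adjusted p = 1.06e-11) and 1.59-fold in COOH SWCNT (0.66 ± 0.08, adjusted p = 1.49e-07).

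In DiBASC2 Acod1 moved the other way. Its libraries were at 62.7, 67.3 and 59.1 CPM, all below the lowest Control library, with a log2 fold change of -0.46 ± 0.09 (adjusted p = 6.17e-04). Fura-2 (78.2 to 95.2 CPM), Di-2-ANEPEQ (75.3 to 112 CPM) and AAV (92.8 to 99.4 CPM) overlapped Control and were not called.

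Odc1 (ENSMUSG00000011179.8, chr12:17544794-17551505, plus strand) encodes ornithine decarboxylase, the enzyme that commits ornithine to polyamines. It was at 961, 875 and 860 CPM in Control. LPS libraries were at 1414, 1405 and 1450 CPM and those of (GT)6 SWCNT at 1392, 1353 and 1475 CPM, while COOH SWCNT was at 1103, 1158 and 1177 CPM. LPS and (GT)6 SWCNT overlapped each other, and both lay above COOH SWCNT, which lay above Control. The rises were 1.58-fold in LPS (0.66 ± 0.05, adjusted p = 9.27e-14), 1.57-fold in (GT)6 SWCNT (0.65 ± 0.05, adjusted p = 4.52e-13) and 1.27-fold in COOH SWCNT (0.35 ± 0.05, adjusted p = 1.44e-06). Between (GT)6 SWCNT and LPS the log2 difference in Odc1 was -0.02, with a 95% interval of -0.12 to 0.08 (adjusted p = 0.864).

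DiBASC2 again lay below Control for Odc1, at 705, 760 and 729 CPM (-0.30 ± 0.05, adjusted p = 1.30e-04). The 3 AAV libraries, at 796 to 848 CPM, were also below the Control libraries, but the difference did not pass the test (-0.11 ± 0.05, adjusted p = 0.170). Fura-2 and Di-2-ANEPEQ overlapped Control.

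Sat1 (ENSMUSG00000025283.15, chrX:155213132-155216449, minus strand) encodes the acetyltransferase that marks spermidine and spermine for export or breakdown. Sat1 fell in 5 of the 7 treatments and was not called in LPS or (GT)6 SWCNT. Control libraries were at 199.8, 171 and 182 CPM and LPS libraries at 196, 203 and 207 CPM. The 2 groups overlapped, and the difference of 0.13 ± 0.06 did not pass the test (adjusted p = 0.0725). That call depended on the setting, since Sat1 was called higher in LPS with no filter on low counts (adjusted p = 0.0207), with DESeq2 size factors (adjusted p = 0.0488), with only the 2 groups fitted (adjusted p = 0.0391), without Control replicate 1 (log2 fold change 0.21, adjusted p = 0.00801) and without LPS replicate 1 (adjusted p = 0.0430).

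COOH SWCNT had the lowest Sat1 level of the 8 groups, at 117, 128 and 140 CPM, with no overlap with Control. The log2 fold change was -0.52 ± 0.06 (adjusted p = 8.49e-09). (GT)6 SWCNT libraries, at 166, 162 and 178 CPM, overlapped Control and were not called (-0.13 ± 0.06, adjusted p = 0.109), although Sat1 was called lower there with no filter on low counts (adjusted p = 0.0425).

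Sat1 also fell in AAV, Fura-2 and both voltage-sensitive dyes. Libraries were at 158, 153 and 142 CPM in Fura-2, at 162, 164 and 150 CPM in DiBASC2, at 160, 151 and 157 CPM in Di-2-ANEPEQ, and at 160, 140 and 147 CPM in AAV. All 12 lay below the lowest Control library. The log2 fold changes were -0.29 in Fura-2 (adjusted p = 0.0171), -0.21 in DiBASC2 (adjusted p = 0.0161), -0.24 in Di-2-ANEPEQ (adjusted p = 0.0123) and -0.30 in AAV (adjusted p = 0.00128), each with an SE of 0.06. Control replicate 1 was the highest Control library for Sat1, Odc1 and Acod1, and without it Sat1 was not called in Fura-2 (-0.22, adjusted p = 0.246), DiBASC2 (-0.15, adjusted p = 0.216) or Di-2-ANEPEQ (-0.17, adjusted p = 0.169). The call in Fura-2 was also lost without Control replicate 3 (-0.29, adjusted p = 0.0794), Fura-2 replicate 2 (-0.30, adjusted p = 0.0799) or Fura-2 replicate 3 (-0.24, adjusted p = 0.216). It was lost in DiBASC2 without its replicate 3 (-0.17, adjusted p = 0.125), and in Di-2-ANEPEQ without its replicate 2 (-0.22, adjusted p = 0.0889) or 3 (-0.24, adjusted p = 0.0510).

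**Figure D2:**
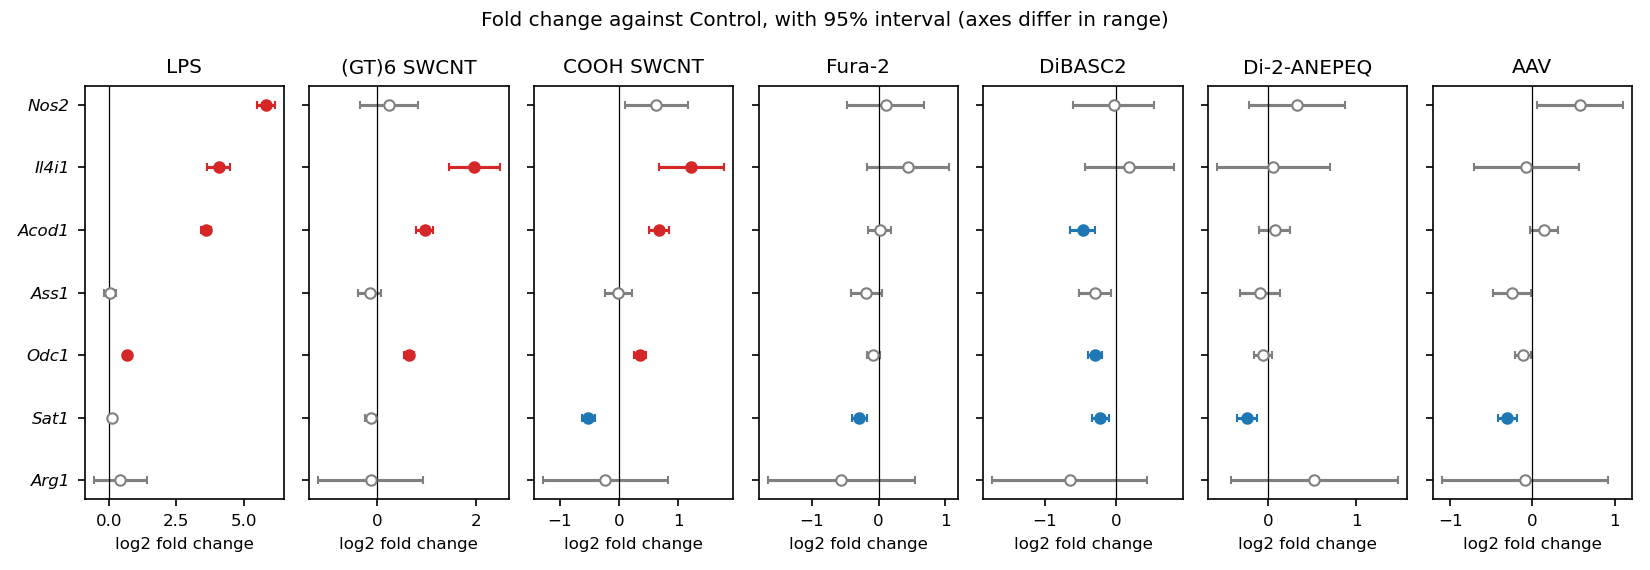
Log2 fold change of the 7 tested genes in each treatment against Control, with 95% intervals; filled red points are called higher, filled blue points called lower, open grey points did not pass the test, and the horizontal ranges differ between panels. Il4i1, Acod1 and Odc1 are filled red in LPS and both nanotube groups, Nos2 in LPS only, and Sat1 is filled blue in COOH SWCNT, AAV, Fura-2 and both voltage dyes.

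Ass1 (ENSMUSG00000076441.9, chr2:31470207-31520672, plus strand), argininosuccinate synthase, which with Asl rebuilds arginine from citrulline, was at 7.23 to 11.8 CPM over all 24 libraries. It was called in none of the 10 comparisons by edgeR's quasi-likelihood test, nor under any alternative run, the DESeq2 test included. In LPS the log2 difference was 0.05, with a 95% interval of -0.18 to 0.28. In DiBASC2 and AAV all 3 libraries lay below those of Control (-0.29 ± 0.11 and -0.25 ± 0.11), at unadjusted p-values of 0.0148 and 0.0327 and adjusted p-values of 0.140 and 0.191.

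The arginases were near the limit of detection. Arg1 (ENSMUSG00000019987.9, chr10:24915221-24927484, minus strand), the cytosolic form, had 4 to 42 counts per library, or 0.141 to 1.42 CPM. It was called in no comparison, and its interval in LPS, -0.56 to 1.43 on the log2 scale, is wide at this depth. Arg2 (ENSMUSG00000021125.6, chr12:79130777-79156301, plus strand), the mitochondrial form, had 15 counts in all 24 libraries together and none in 13 of them. Its Di-2-ANEPEQ libraries held 2 or 3 counts and all other libraries at most 1, so every group was at or under the floor of 3 counts per library, and no fold is given.

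Per kilobase of exon, the levels of the genes in Control were, from high to low, 264 CPM per kb for Odc1, 66.4 for Sat1, 33.2 for Acod1, 4.33 for Ass1, 0.390 for Nos2, 0.294 for Arg1 and 0.198 for Il4i1. In LPS they were 418 for Odc1, 402 for Acod1, 72.8 for Sat1, 21.9 for Nos2, 4.52 for Ass1, 3.42 for Il4i1 and 0.391 for Arg1. Acod1 passed Sat1 and came close to Odc1 in LPS, and Nos2 passed Ass1. The Il4i1 level per kilobase carries the uncertainty of its overlaps with Tbc1d17 and Nup62.

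In (GT)6 SWCNT 3 of 7 were called, all higher, beside 20.4% of all tested genes (9.90% higher, 10.5% lower), and the median log2 fold change of the 7 was 0.24 against -0.02 for all genes. In COOH SWCNT 4 of 7 were called, 3 higher and 1 lower, beside 20.0% (9.39% higher, 10.6% lower), with medians of 0.35 and -0.00. In DiBASC2 3 of 7 were called, all lower, beside 5.47% (1.82% higher, 3.64% lower), with a median of -0.29 for the 7. With upper-quartile scaling the share of DiBASC2 calls that were higher was 54.9% in place of 33.3%, while Acod1, Odc1 and Sat1 stayed lower.

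Sat1 was the single member called in Fura-2, in Di-2-ANEPEQ and in AAV. The backgrounds there were 0.252% of tested genes in Fura-2 (0.0381% higher, 0.213% lower), 3.08% in Di-2-ANEPEQ (0.686% higher, 2.39% lower) and 5.00% in AAV (1.84% higher, 3.16% lower). The medians of the 7 log2 fold changes were -0.08, 0.06 and -0.10.

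Set directly against LPS, (GT)6 SWCNT was lower for 4 of 7 members (Nos2, Il4i1, Acod1 and Sat1), beside 21.6% of all genes called (9.63% higher, 11.9% lower). COOH SWCNT was lower for 5 of 7, the same 4 and Odc1, beside 37.8% (18.1% higher, 19.7% lower). These comparisons share the LPS libraries. The log2 fold changes of Il4i1 were -2.12 ± 0.16 in (GT)6 SWCNT and -2.85 ± 0.17 in COOH SWCNT, and those of Acod1 were -2.64 ± 0.08 and -2.94 ± 0.08. Odc1 differed from LPS in COOH SWCNT by -0.31 ± 0.05 (adjusted p = 2.98e-06). For Sat1 the values were -0.26 ± 0.06 (adjusted p = 4.63e-04) and -0.65 ± 0.06 (adjusted p = 6.45e-12).

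The 2 nanotubes differed from each other in 4 of the 7 tested members, all higher in (GT)6 SWCNT, beside 21.4% of all genes called (11.9% higher, 9.48% lower). Sat1 was higher by 0.39 ± 0.06 on the log2 scale (adjusted p = 3.26e-06) and Odc1 by 0.30 ± 0.05 (adjusted p = 3.01e-05), and neither call was lost when single libraries were left out. Il4i1 was higher by 0.73 ± 0.21 (adjusted p = 0.0088) and Acod1 by 0.29 ± 0.08 (adjusted p = 0.00668). Without (GT)6 SWCNT replicate 1, the highest of its group for both genes, neither passed the test (Il4i1 0.49, adjusted p = 0.151; Acod1 0.25, adjusted p = 0.0537), and Il4i1 was also lost without COOH SWCNT replicate 3 (0.61, adjusted p = 0.0555). For Nos2 the difference was -0.38, with a 95% interval of -0.89 to 0.12, and the doses behind both preparations are not given in the labels.

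**Figure D3:**
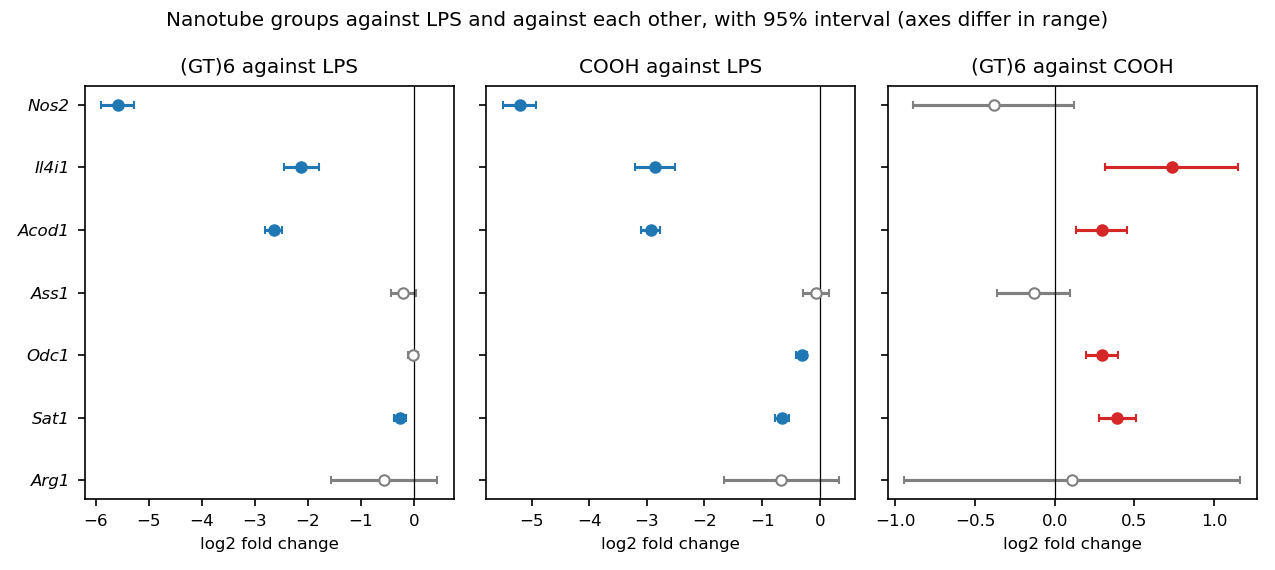
Log2 fold change of the 7 tested genes between the nanotube groups and LPS, and between the 2 nanotubes, with 95% intervals; filled red is called higher, filled blue called lower, open grey did not pass the test. Every called member is lower in the nanotube groups than in LPS, and the 4 called between nanotubes are higher in (GT)6 SWCNT.

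Other genes of these pathways were followed in 4 lists, whose counts are to be read against the shares of all tested genes called, 5.47% in DiBASC2, 20.0% in COOH SWCNT, 20.4% in (GT)6 SWCNT and 28.3% in LPS. Of 20 genes for arginine supply, nitric oxide and its cofactor tetrahydrobiopterin, 16 were tested. In LPS 4 were higher and 1 lower (median log2 fold change 0.01). The counts were 3 and 1 for (GT)6 SWCNT (median 0.04), 1 and 3 for COOH SWCNT (median 0.00), and 0 and 2 for DiBASC2 (median -0.03). In LPS, (GT)6 SWCNT and COOH SWCNT, 5, 4 and 4 of 16 are near the shares of all genes. The lower gene in (GT)6 SWCNT was not called in 5 of 6 fits that left out 1 library, and the 2 lower in DiBASC2 went to 1 in 4 of 6, among them the fit without Control replicate 1. Gch1, the enzyme that starts tetrahydrobiopterin synthesis, went from 23.5 ± 1.60 CPM (SD, n = 3) in Control to 45.7 ± 4.03 in LPS and 31.9 ± 1.79 in (GT)6 SWCNT (log2 fold changes 0.96 ± 0.08 and 0.44 ± 0.09, adjusted p = 6.29e-12 and 1.69e-04). It was at 26.4 ± 2.46 CPM in COOH SWCNT (0.17 ± 0.09, adjusted p = 0.187) and fell in DiBASC2 (-0.30 ± 0.09, adjusted p = 0.0375). Slc7a1, the main cationic amino acid importer, rose from 296 CPM in Control to 327 CPM with LPS, 342 with (GT)6 SWCNT and 340.2 with COOH SWCNT, and fell to 258 with DiBASC2. Slc7a2, another importer of arginine, rose in LPS by 0.17 on the log2 scale. The lower genes in COOH SWCNT included Pts and Qdpr, which act in the synthesis and recycling of tetrahydrobiopterin, each at -0.21. Between the nanotubes, Gch1 and Qdpr were higher in (GT)6 SWCNT by 0.27 ± 0.08 and 0.18 ± 0.05 (adjusted p = 0.0160 and 0.00464). Asl was not called in any of these 4 treatments, and neither was Nos1. Exons of Slc7a2, Nos1 and Qdpr overlap a gene on the opposite strand, so their counts are uncertain.

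All 17 genes of the polyamine list were tested, with 5 higher and 1 lower in LPS (median 0.05), 4 and 2 in (GT)6 SWCNT (median 0.08), 2 and 2 in COOH SWCNT (median 0.03) and 3 lower in DiBASC2 (median -0.06). The 6 of 17 in LPS and 4 of 17 in COOH SWCNT are near the 28.3% and 20.0% of all genes. With 1 library left out, the lower calls in COOH SWCNT went to 0 or 1 in all 6 fits and the lower calls in (GT)6 SWCNT to 1 in 5 of 6. The 1 lower in LPS went to 0 without LPS replicate 1, and the 3 in DiBASC2 to 0 without Control replicate 1. Smox encodes spermine oxidase. Control was at 40.4 ± 1.59 CPM (SD, n = 3), LPS at 66.4 ± 4.64, (GT)6 SWCNT at 64.5 ± 3.78 and COOH SWCNT at 54.6 ± 2.59, with log2 fold changes of 0.72, 0.68 and 0.44, each ± 0.06. In DiBASC2 Smox fell by 0.22 ± 0.06 on the log2 scale (adjusted p = 0.0216), a call lost without Control replicate 1, and between the nanotubes it was higher in (GT)6 SWCNT by 0.24 ± 0.05 (adjusted p = 0.00114). Azin1, the antizyme inhibitor that protects ornithine decarboxylase from degradation, rose by 0.24, 0.26 and 0.20 in LPS, (GT)6 SWCNT and COOH SWCNT, each ± 0.04. Mat2a, which makes S-adenosylmethionine, rose by 0.35 ± 0.05 in LPS and fell in DiBASC2 (-0.20 ± 0.05, adjusted p = 0.00576), a call also lost without Control replicate 1. Amd1, which supplies the aminopropyl donor, had a log2 difference of 0.01 in LPS (adjusted p = 0.945) and was lower in (GT)6 SWCNT (-0.21 ± 0.05, adjusted p = 0.00466). Exons of Azin1 and Mat2a also overlap a gene on the opposite strand.

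The citrate cycle list surrounds the substrate of Acod1. Of 22 tested genes 2 were lower in LPS and none higher (median -0.01), where 28.3% of all tested genes were called, and the lower count ran from 1 to 5 over the alternatives run. In (GT)6 SWCNT 2 were lower (median -0.01; 1 in 3 of 6 fits with 1 library left out). In COOH SWCNT 1 was higher and 6 lower (median -0.04), and the higher one was lost without Control replicate 1 or COOH SWCNT replicate 2. In DiBASC2 edgeR called 0, as did DESeq2, and 1 gene had an unadjusted p under 0.05. Idh1, cytosolic isocitrate dehydrogenase, had 96.1 ± 3.67 CPM (SD, n = 3) in Control, beside which LPS had 82.0 ± 3.24, (GT)6 SWCNT 73.5 ± 2.47 and COOH SWCNT 83.6 ± 3.87. The log2 fold changes of Idh1 were -0.23, -0.39 and -0.20, each ± 0.05. In COOH SWCNT the lower genes also included Sdhb, a subunit of succinate dehydrogenase, the enzyme that itaconate inhibits (-0.22 ± 0.04, adjusted p = 3.08e-04), and Sdhd (-0.15 ± 0.05, adjusted p = 0.0188). Neither was called in LPS. Mdh1, cytosolic malate dehydrogenase, was lower in both nanotube groups (-0.16 ± 0.05 in (GT)6 SWCNT and -0.23 ± 0.05 in COOH SWCNT), and some of its exon bases belong also to Wdpcp. Sdhb was higher in (GT)6 SWCNT than in COOH SWCNT by 0.19 ± 0.04 and Idh1 lower, at -0.19 ± 0.05 (adjusted p = 0.00151 and 0.00386).

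Of 17 genes for aromatic amino acid breakdown and the aryl hydrocarbon receptor, which products of Il4i1 can activate, 12 were tested. LPS and each nanotube had 2 higher and none lower, and DiBASC2 had 1 lower. These 2 of 12 are below the share of all genes called in LPS and near it in the nanotube groups. The medians of the list were 0.12 in DiBASC2, 0.04 in COOH SWCNT, -0.09 in (GT)6 SWCNT and -0.08 in LPS. Tiparp, a target gene of that receptor, was the one called in all 4, at log2 fold changes of 0.32, 0.34, 0.23 and -0.19, each ± 0.04. Its call in DiBASC2 was lost without Control replicate 1 and without DiBASC2 replicate 3, and its exons overlap a pseudogene on the opposite strand. The other gene called was Slc3a2, a subunit of amino acid exchangers, in LPS (0.12) and (GT)6 SWCNT (0.17), and its partner Slc7a5 in COOH SWCNT (0.18). Under 2 of the 7 alternatives that left out no library, the 2 higher in LPS went to 1. The receptor gene Ahr was itself at 2 to 16 counts per library. Ido1, which like Il4i1 consumes tryptophan, had 0 counts in all 24 libraries, so its level was under the floor of 3 counts in each.

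The shares of all tested genes called were 0.252% in Fura-2, 3.08% in Di-2-ANEPEQ and 5.00% in AAV. Of the genes in the 4 pathway lists, edgeR called 0 in Fura-2, as did DESeq2. In edgeR 3 genes of the arginine list and 2 of the polyamine list had an unadjusted p under 0.05 there. For the citrate cycle and aromatic lists these counts were 2 and 0. The Di-2-ANEPEQ libraries gave 1 call within these lists, Sdha (0.16 ± 0.03, adjusted p = 0.00573), which was lost without Di-2-ANEPEQ replicate 2. In AAV Sdha was higher (0.13 ± 0.03), and Asl (-0.20 ± 0.06, adjusted p = 0.0294), Oaz2 (-0.22 ± 0.06), Mdh1 (-0.19 ± 0.05) and Sdhb (-0.14 ± 0.04, adjusted p = 0.0482) were lower. Without AAV replicate 2, or without Control replicate 3, none of these calls in AAV passed the test. Over the 6 fits that left out 1 library, the polyamine list had no lower call in 5. The citrate cycle list had no higher call in 3 of the 6, and its lower calls went from 2 to 1 or 0 in 4.

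**Figure D4:**
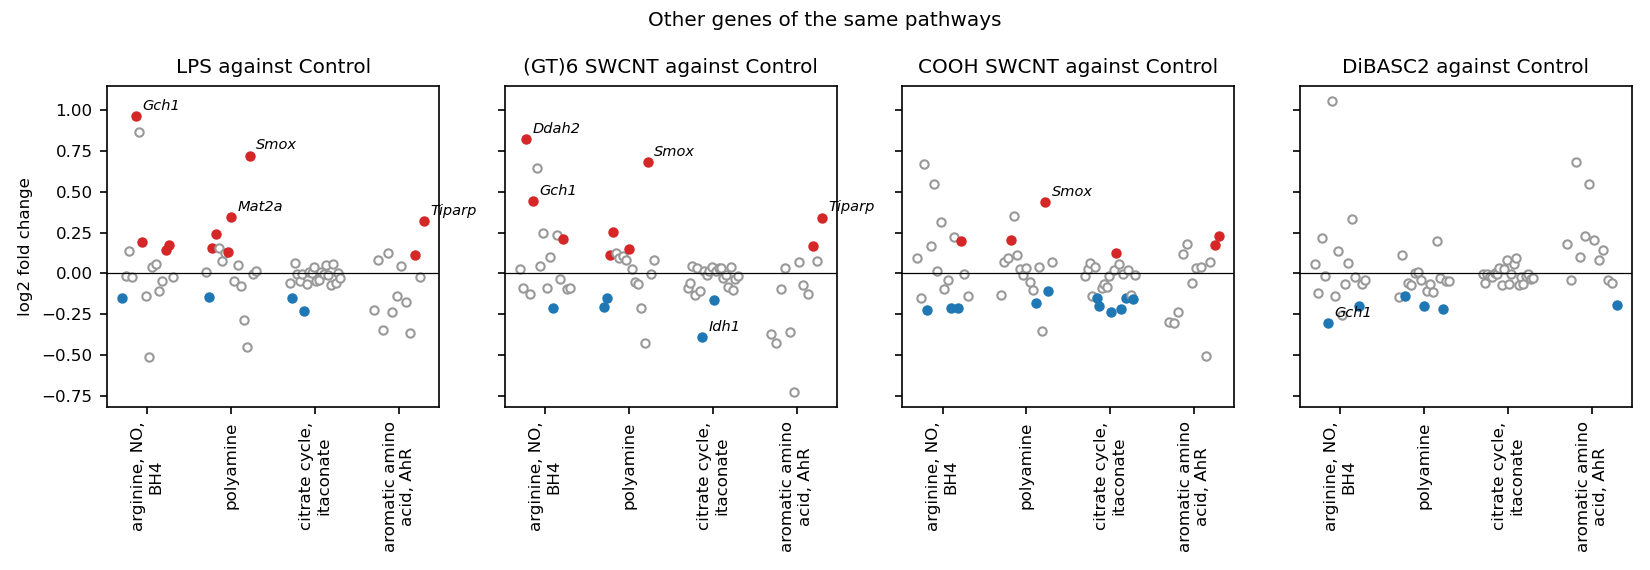
Log2 fold change of every tested gene of the 4 pathway lists in LPS, (GT)6 SWCNT, COOH SWCNT and DiBASC2 against Control; filled red is called higher, filled blue called lower, open grey did not pass the test, and called genes past 0.3 are named. Gch1 and Smox lead the called genes in LPS, and most citrate cycle genes lie near 0.

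For the 3 members that rose at least 1 log2 unit in a treatment, the genes of at least 5 CPM with the most similar pattern were found by the root mean square difference of centred log2 group means over the 8 groups, a description of likeness with no test. Nearest to Nos2 among 9492 candidates were Nfkbiz (0.32), Socs3 (0.44) and Zc3h12a (0.59), each of them an inducible regulator of cytokine signalling. Nfkbiz went from 15.9 ± 1.27 CPM (SD, n = 3) in Control to 844 ± 7.73 in LPS. Nfkbiz also stood above Control in the nanotube groups, at 24.2 ± 1.51 in (GT)6 SWCNT and 22.8 ± 0.55 in COOH SWCNT. Nos2 overlapped Control in (GT)6 SWCNT, and in COOH SWCNT it lay just above Control without passing the test. Among the 3 nearest to Il4i1 were Myc (0.25) and Traf1 (0.29), and among the 3 nearest to Acod1 were Tnfaip3 (0.17) and Nlrp3 (0.25). Nlrp3, the inflammasome sensor, was at 95.7 ± 3.66 CPM in Control, 179 ± 2.84 in COOH SWCNT, 244 ± 3.52 in (GT)6 SWCNT and 822 ± 20.3 in LPS, the same order of groups as Acod1.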

How the data were processed

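Groups of the 24 poly-A libraries were taken from the sample titles. The authors deposited raw read counts per gene. STAR 2.5.4b and GRCm38.p6 are named in the submitters' processing notes, and the counting tool, annotation release and strand setting are not given in the sources used here. Symbols and positions came from GENCODE M21, in which 54723 of 54838 identifiers matched without their version. In R 4.3.3, edgeR 4.0.16 (filterByExpr, TMM, 1 quasi-likelihood model of all libraries, 16 residual degrees of freedom) tested 13116 genes in 10 two-sided contrasts. Calls are at an adjusted p under 0.05 (Benjamini-Hochberg, over all tested genes of a contrast), and all adjusted p-values not ascribed to an alternative are from this test. The SE is the absolute log2 fold change divided by the square root of F, and CPM use TMM-scaled libraries. The fit was also run on simulated counts with the same spread for every gene, which cannot test how it handles the spread of real genes. Replicate pairs differed by more than sampling noise (chi-square of 2.43 to 18.9 per degree of freedom), so each library counted once.

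All 8 genes were named whatever their values. Pathway genes were named from the 3 largest called changes per list and contrast (at least 5 CPM, groups without overlap), and the genes most like a member needed a member with a log2 fold change of at least 1. Sdhd, Oaz2, Ahr, Ido1, Tbc1d17 and Nup62, and values of other genes in treatments that this rule does not reach, were chosen after they were seen. Some genes that the rule names are not reported here. The members and lists were chosen with earlier results of these data known. Alternatives were other filters, scalings, DESeq2 1.42.0, a fit of 2 groups, the replicate block and each library left out.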

Additional observations from a re-analysis of the deposited data

How the results depend on the processing

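The 70 log2 fold changes of the 7 tested members were recomputed under the alternatives, which gave 900 values. No call was reversed, although some uncalled values changed sign. Of the 900, 879 stayed on their side of the threshold, 12 calls were lost and 9 were gained, and those that bear on a call stand beside it above. One gain does not: Acod1 passed in AAV with no filter on low counts (0.14, adjusted p = 0.0491), which made 2 members called there instead of 1. Fura-2 calls rose from 33 to 86 with the DESeq2 test, 188 with no filter on low counts and 80 with only the 2 groups, and Di-2-ANEPEQ calls from 404 to 814 with only the 2 groups. Leaving out 1 library at a time gave 0 to 106 calls in Fura-2 (the fits with 0 by edgeR had 915 to 1197 genes at an unadjusted p under 0.05), 333 to 574 in DiBASC2 against 717, 120 to 418 in Di-2-ANEPEQ and 157 to 769 in AAV against 656. Members called then ranged from 2 to 4 between the nanotubes and from 0 to 1 in Fura-2 and Di-2-ANEPEQ, where Sat1 was under an unadjusted 0.05 in the fits with 0. Upper-quartile scaling moved the share of higher calls from 36.7% to 26.3% in AAV, from 44.6% to 57.5% for (GT)6 SWCNT against LPS, from 47.9% to 62.5% for COOH SWCNT against LPS and from 55.6% to 44.4% between the nanotubes.

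Replicate numbers did not pair the samples: 30 correlations of same-numbered libraries ran from -0.10 to 0.07, and 13 of 30 were highest with their own number. With the replicate block, calls were 3683 in LPS, 2631 in (GT)6 SWCNT, 2548 in COOH SWCNT, 22 in Fura-2, 694 in DiBASC2, 396 in Di-2-ANEPEQ and 580 in AAV, and the numbers of members called were as without it in all 10 contrasts. At 0.141 to 1.42 CPM, Arg1 is limited by depth.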
